A study of Spodoptera frugiperda with 3 samples.

Results

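The response of Sf9 cells to the overexpression vector of Sf-15 was described by setting the library of the transfected cells (named Sf-15; the labels write Bm-15 overexpression) against the library of normal Sf9 cells. The members are the de novo assembled transcripts, called unigenes, that had 10 or more fragments in Sf9, in Sf-15 or in both. They numbered 37239 of the 41980 unigenes listed for this comparison and of the 42041 listed for the whole series of 3 libraries. Sf9 is a continuous cell line from the ovary of the fall armyworm *Spodoptera frugiperda*. The Sf-15 cells were the same line transfected with 2 μg of *pBac[A3-EGFP-A3-Sf-15]*, in which the *actinA3* promoter drives Sf-15 and which also carries EGFP. The normal cells are labelled only as normal, and the series as analysed here holds no library of cells given an empty vector. The act of transfection, the EGFP and the level of Sf-15 therefore cannot be told apart, and the time from transfection to RNA extraction is not given in the sources used here. A library named ASO, from cells given an antisense oligonucleotide that represses Sf-15, is not part of the ratio. It is used to show the level of a unigene outside the comparison and to group or filter members. It is also set against Sf9 where members are taken by assembly number. Each condition had 1 library. No spread between cultures can be given, and every interval is the exact 95% interval of a ratio of fragments, which covers counting error only and compares the libraries and not the conditions.

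Sf-15 is the fall armyworm homolog of the silkworm snoRNA Bm-15. It is a C/D box snoRNA, a class of small nucleolar RNAs that pair with ribosomal RNA. They guide the enzyme fibrillarin to methylate the 2′ hydroxyl on the ribose of a chosen nucleotide. Some members of the class also act on messenger RNAs. The unigenes carry assembly names only, and 0 of these names matched the reference gene table of the species. Their sequences, the functions of single unigenes, the level of Sf-15 itself and the defining markers of Sf9 cells were not analysed here.

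The fragments of all unigenes came to 19.6 M (mega) in Sf9 and to 18.0 M in Sf-15. The members held 99.9% of the fragments of either library, with a median of 48 fragments per member in Sf9 and 38 in Sf-15. Of the members, 31850 (85.5%) had 10 or more fragments in both libraries. A further 3784 (10.2%) reached 10 only in Sf9, and 1605 (4.31%) only in Sf-15. A unigene that passed through a single library had to be higher there, and the median log2 ratios of these groups, -1.14 and 1.12, follow from the filter. Just inside the limit, the 903 members whose larger count was exactly 10 had a median log2 ratio of -0.03, and just outside it the 863 unigenes with a larger count of 9 had a median of -0.05. A count of 0 was found for 27 members in Sf9 and for 37 in Sf-15, which allows up to 3 fragments in the library.

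Upon overexpression, most unigenes were slightly lower relative to the library total. The median log2 ratio of FPKM (fragments per kilobase of sequence and per M, or mega, mapped fragments) of Sf-15 to Sf9 was -0.26. A ratio below 0 was found for 69.7% of the members. The middle of the distribution was narrow. The quartiles were -0.60 and 0.10, and 70.2% of the members lay within 1.5-fold of the median. In the tails, 5% of the members were at -1.38 or below and 5% at 0.89 or above, and the outermost 1% on each side began at -2.46 and 1.86. With the median set to 0 these limits were -1.12 and 1.15, and -2.20 and 2.12, so that the tails were of nearly equal length.

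A ratio of 2-fold or more was found for 1494 members that were higher in Sf-15 (4.01% of all) and for 3844 that were lower (10.3%). With the median ratio set to 0, the numbers were 2454 (6.59%) and 2317 (6.22%), so that the share of higher unigenes among the calls went from 28.0% to 51.4%. Scaling by TMM moved every log2 ratio by 0.25 and gave 49.9%. The excess of lower calls thus depended on the scaling to the library totals. Among the 31850 members with 10 or more fragments in both libraries, 600 were higher and 1699 lower. At a limit of 4-fold, 275 were higher (0.738%) and 719 lower (1.93%).

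Most calls rested on few fragments. Unigenes called higher had a median of 27 fragments over both libraries and those called lower had 33, against 86 over all members. A total under 100 fragments was found for 86.1% of the higher and 80.0% of the lower calls, and for 53.4% of the members. The interval excluded a ratio of 1 for 68.7% of the higher and 72.9% of the lower calls. It lay wholly past 2-fold for 220 higher (0.591%) and 527 lower unigenes (1.42%), and with the median ratio set to 0 for 344 (0.924%) and 272 (0.73%). A smaller shift was common. The interval lay above the median ratio for 5267 members (14.1%) and below it for 5869 (15.8%).

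**Figure D1:**
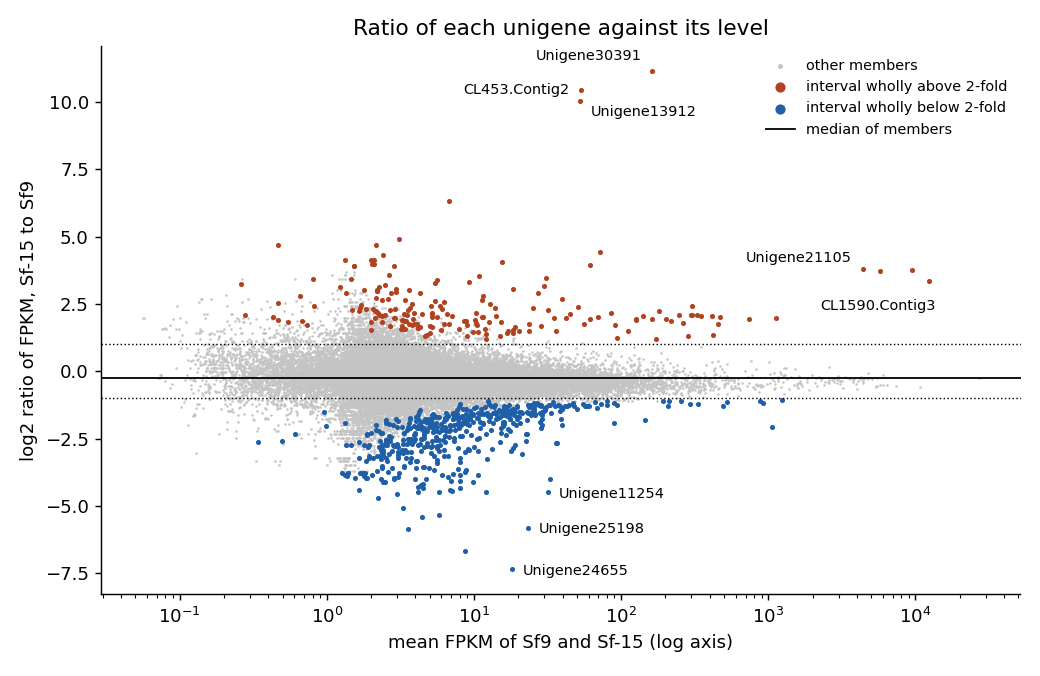
Each point is a member with a fragment in both libraries, by the mean of its FPKM in Sf9 and Sf-15 (log axis) and its log2 ratio of Sf-15 to Sf9; the solid line is the median of -0.26 and the dotted lines are 2-fold. The 27 members at 0 in Sf9 and the 37 at 0 in Sf-15 are not drawn, and the coloured points are those whose interval lies wholly past 2-fold, with CL1590.Contig3 and Unigene21105 apart at the right.

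The unigenes that were most certainly higher were nearly absent from normal cells. Unigene30391 (1439 nt) had 4 fragments in Sf9, 8444 in Sf-15 and 3 in ASO, a level of 0.142 FPKM in Sf9 and 325.7 in Sf-15. Its log2 ratio was 11.16 (9.81 to 13.04). The unigenes with the next assembly numbers showed the same pattern. Unigene30392 (234 nt) had 0 fragments in Sf9, 322 in Sf-15 and 1 in ASO, at least 117-fold higher when 3 fragments are allowed to Sf9. Unigene30393 (479 nt) had 250 fragments in Sf-15 and 0 in both other libraries, at least 90.6-fold higher than Sf9. These 3 unigenes were high in the library of plasmid-transfected cells alone.

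The other 3 of the 6 were also high in ASO. Unigene13912 (1545 nt) had 3 fragments in Sf9, 2898 in Sf-15 and 1511 in ASO, with a log2 ratio of Sf-15 to Sf9 of 10.04 (8.49 to 12.32). In CL453.Contig2 (666 nt) the counts were 1 in Sf9, 1275 in Sf-15 and 651 in ASO, with a log2 ratio of 10.44 (7.96 to 15.74). Unigene24276 (263 nt) had 0, 310 and 131 fragments in the same order, at least 112-fold higher in Sf-15 than in Sf9. Per M fragments, ASO stood between Sf9 and Sf-15 in all 3. Of the 27 members at 0 in Sf9, 10 had 10 or more fragments in ASO and 6 had 0 there.

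The unigenes that were most certainly lower were 253 to 632 nt long and were also low in ASO. Unigene24655 (253 nt) had 178 fragments in Sf9, 1 in Sf-15 and 2 in ASO, with a log2 ratio of -7.36 (-12.67 to -4.86). Unigene25832 (325 nt) had 110, 1 and 2 fragments in the same order, and a log2 ratio of -6.66 (-11.98 to -4.15). Unigene25169 (397 nt) had 88, 2 and 4, and a log2 ratio of -5.34 (-8.41 to -3.44). In all of these the transfected libraries held a handful of fragments. Unigene25198 (343 nt) had 307 fragments in Sf9, 5 in Sf-15 and 6 in ASO, a ratio of -5.82 (-7.45 to -4.58). More fragments remained upon overexpression for the other unigenes of the 6. Unigene11254 (632 nt) had 758 fragments in Sf9, 31 in Sf-15 and 25 in ASO, which gave -4.49 (-5.06 to -3.97). Unigene1303 (345 nt) had 421, 24 and 16, which gave -4.01 (-4.67 to -3.42). Of the 37 members at 0 in Sf-15, the highest in Sf9 was Unigene25312 (224 nt) with 42 fragments, at least 12.9-fold lower in Sf-15, and 2 of the 37 had 10 or more fragments in ASO.

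**Figure D2:**
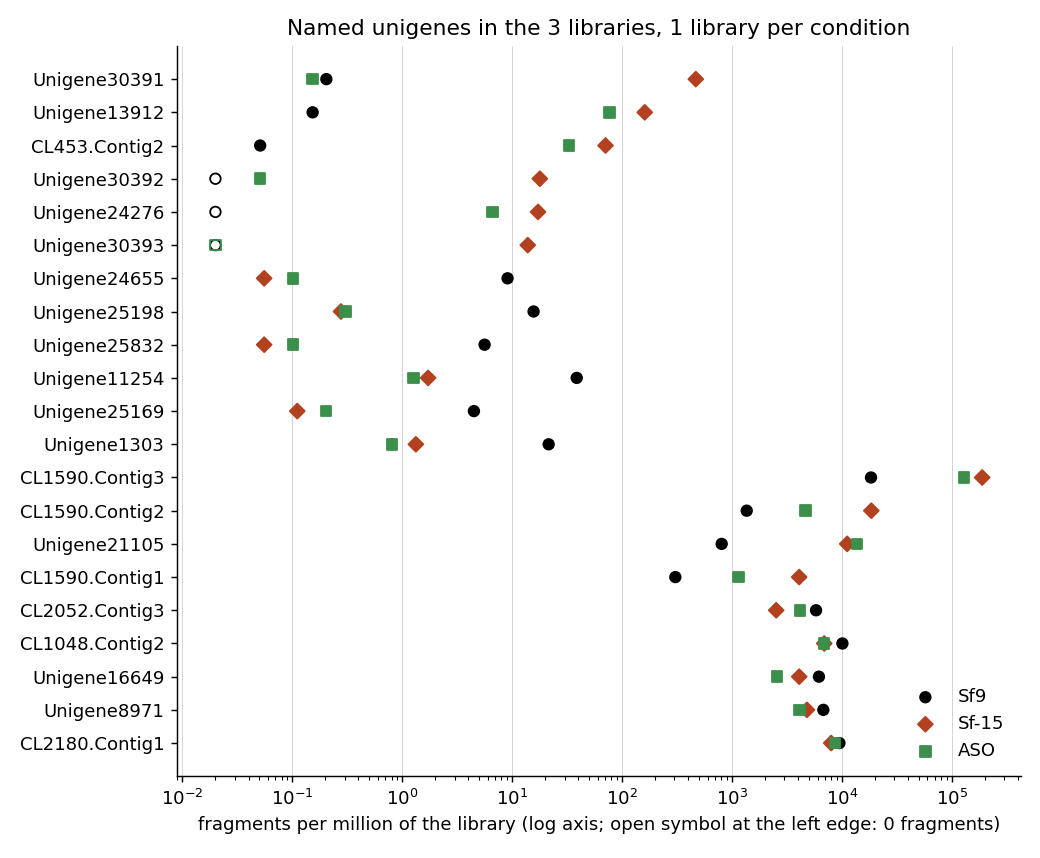
Fragments per M (mega) fragments of the library (log axis) of the named unigenes in Sf9, Sf-15 and ASO, 1 library each; an open symbol at the left edge is a count of 0. From the top are the 6 most certain rises, the 6 most certain falls, the largest gains and losses of fragments, and CL2180.Contig1, and Unigene30391, Unigene30392 and Unigene30393 are high in Sf-15 alone.

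In fragments, the response was concentrated in a single cluster of contigs. Contigs that the assembler joined into a cluster share a CL number, and CL1590 has 3 of them. Its longest contig, CL1590.Contig3 (8423 nt), had 360287 fragments in Sf9, 3400336 in Sf-15 and 2555872 in ASO, a log2 ratio of Sf-15 to Sf9 of 3.36 (3.35 to 3.36). CL1590.Contig2 (1047 nt) had 26666, 333641 and 92277 fragments, a ratio of 3.77 (3.75 to 3.78), and CL1590.Contig1 (380 nt) had 5981, 73575 and 22647, a ratio of 3.74 (3.70 to 3.78). All 3 contigs were thus more than 10-fold higher in Sf-15 than in Sf9. Outside the cluster, Unigene21105 (1367 nt) gained the most, with 15788 fragments in Sf9, 201206 in Sf-15 and 270001 in ASO, and a ratio of 3.79 (3.77 to 3.82).

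Per M fragments, 13733 of the listed unigenes gained a total of 227774 and 28247 lost the same amount, since both libraries are scaled to their totals. The CL1590 cluster made up 84.0% of the gain. Only 6 unigenes made up 90% of the gain, whereas 4719 were needed for 90% of the loss and 320 for 50% of it. The most abundant unigene held 1.84% of the fragments of Sf9 and 18.9% of Sf-15, the 10 most abundant held 8.71% and 26.6%, and the 1000 most abundant held 63.2% and 70.1%. When the fragments of CL1590 were left out of both totals, every log2 ratio moved by 0.31 and the median became 0.05, on the other side of 0. In that scaling 56.2% of the calls were higher.

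The largest losses in fragments were small in fold. CL2052.Contig3 (12499 nt) had 113937 fragments in Sf9, 45488 in Sf-15 and 82280 in ASO, and its log2 ratio was -1.20 (-1.22 to -1.19). With the median set to 0 it was -0.94, inside the 2-fold limit. CL1048.Contig2 (1585 nt) had 197909, 124482 and 135058 fragments and a ratio of -0.55 (-0.56 to -0.54). Unigene16649 (482 nt) had a ratio of -0.60 and Unigene8971 (908 nt) of -0.50. Among the 4 unigenes with the highest mean level per M fragments, CL2180.Contig1 (1911 nt) stayed nearest to the median of all members, with 185841 fragments in Sf9, 143945 in Sf-15 and 170560 in ASO and a log2 ratio of -0.25, or 0.01 with the median set to 0.

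The response was then set against abundance, in 5 groups of equal size by mean FPKM, with limits at 1.95, 3.04, 5.18 and 12.7 FPKM. The median log2 ratio was -0.17 in the lowest group, -0.20 in the next and in the middle group, -0.27 in the fourth and -0.35 in the highest. The most abundant group thus sat furthest below 0, and with the median set to 0 the groups ran from 0.09 to -0.09. Among the 1000 members with the most fragments, the median was -0.41 and 910 had a ratio below 0, beside 69.7% of all members. Of these 1000, 18 were higher and 23 lower by 2-fold, beside 4.01% and 10.3% of all members. With the median set to 0, 20 were higher and 3 lower, beside 6.59% and 6.22% of all members. The trend depended on the library used for grouping. When members were grouped by FPKM in ASO, which is not part of the ratio, the medians were -0.30, -0.23, -0.18, -0.24 and -0.32, with the middle group highest and the lowest and highest groups 0.02 apart. Across members, Spearman's rho of the ratio with mean FPKM was -0.11, given as a description over 37239 unigenes that share the same libraries.

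The spread of the ratios narrowed with abundance more clearly than the median moved. A robust SD (from the quartiles) of the log2 ratio was 0.80 in the lowest group and 0.31 in the highest, where counting error alone gives 0.56 and 0.086. The spread left after counting error was taken away was 0.58, 0.42, 0.35, 0.36 and 0.29 from the lowest to the highest group. In the lowest group, 1998 members had 10 or more fragments in Sf9 only and 956 in Sf-15 only, against 2 and 6 in the highest. Part of the wider spread and of the calls at low abundance thus follows from the filter. Calls past 2-fold followed the spread. Higher calls went from 8.92% of the lowest group to 1.09% of the highest, and lower calls from 16.7% to 4.23%. Unigenes whose interval lay wholly past 2-fold followed another order, with 40, 39, 36, 36 and 69 higher and 65, 61, 99, 149 and 153 lower from the lowest to the highest group. With the median set to 0, they were 79, 56, 58, 68 and 83 higher and 29, 33, 56, 90 and 64 lower, and the fourth group then held the most lower unigenes. This order also depended on the grouping. When members were grouped by FPKM in ASO, 43, 35, 30, 38 and 74 were higher and 201, 90, 69, 89 and 78 lower. With the median set to 0, that grouping gave 76, 58, 48, 68 and 94 higher and 131, 44, 44, 34 and 19 lower. The lowest group then held the most lower unigenes.

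**Figure D3:**
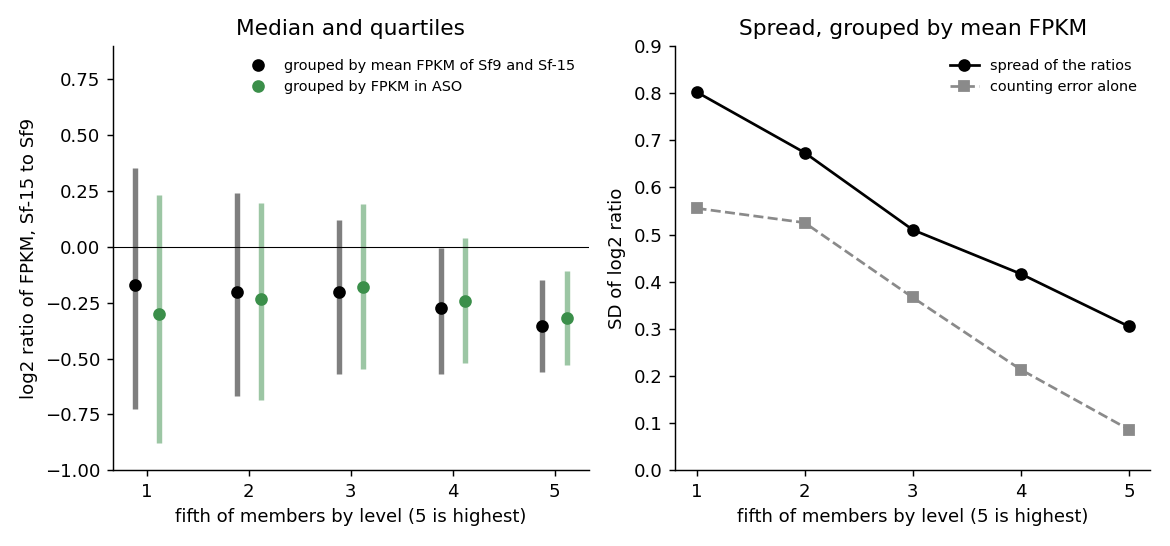
Left, the median (point) and quartiles (bar) of the log2 ratio of Sf-15 to Sf9 in 5 equal groups of members by level, grouped by mean FPKM of both libraries (black) or by FPKM in ASO (green). Right, the robust SD of the ratios falls from 0.80 to 0.31 while the SD from counting error falls from 0.56 to 0.086.

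In the highest group, the unigenes not yet named that were most certainly higher had 10 to 284 fragments in normal cells. CL1137.Contig2 (847 nt) had 105 fragments in Sf9, 2104 in Sf-15 and 932 in ASO, a log2 ratio of 4.45 (4.16 to 4.74). CL1291.Contig2 (1966 nt) had 284, 4075 and 2041, a ratio of 3.96 (3.79 to 4.14), and the other contig of its cluster, CL1291.Contig1 (2135 nt), had 441, 2618 and 1485, a ratio of 2.69 (2.54 to 2.84). Unigene16908 (291 nt) had 10, 152 and 70 fragments and a ratio of 4.05 (3.13 to 5.14). Unigene1773 (489 nt) had 49, 496 and 240 fragments and a ratio of 3.46 (3.03 to 3.91). In all 5 the level in ASO per M fragments lay between the levels in Sf9 and Sf-15. These unigenes were chosen after their values were seen. Their FPKM in Sf9 was 1.75 to 10.5, below the limit of 12.7 for the highest group. They thus stood in that group only through their level in Sf-15, so the grouping shares their rise.

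Unigene length ran from 200 to 32587 nt. In 5 equal groups by length, the median log2 ratio was -0.34 in the shortest (up to 299 nt), -0.27 in the next and in the middle group, -0.26 in the fourth and -0.21 in the longest (1621 nt and more). The longest group was 0.13 above the shortest. The shares of calls differed more. Lower calls made up 21.8%, 14.2%, 8.70%, 4.31% and 2.56% of the groups from the shortest to the longest, and higher calls 7.34%, 4.87%, 3.21%, 2.36% and 2.27%. With the median set to 0, lower calls went from 15.0% to 1.02% and higher calls from 11.1% to 4.08%. Short unigenes hold few fragments, with a median total of 28 in the shortest group and 447 in the longest, and the SD from counting error fell from 0.57 to 0.14. In the shortest group, 2352 members had 10 or more fragments in Sf9 only and 836 in Sf-15 only, against 134 and 137 in the longest. Part of the calls among short unigenes thus follows from the filter.

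When only the members with a total of 100 or more fragments were kept, the medians were -0.33, -0.33, -0.29, -0.26 and -0.24 from the shortest to the longest group. The number whose interval lay wholly below 2-fold fell along the groups, with 106, 81, 44, 23 and 24 unigenes of about 3473 each. The number wholly above 2-fold was 38, 26, 25, 19 and 14. With the median set to 0, the numbers were 57, 34, 18, 13 and 8 below and 54, 34, 36, 27 and 28 above. Among members with 10 or more fragments in both libraries, the difference between the longest and the shortest group turned to -0.03. The rank correlation of the ratio with length over all members was 0.08, again as a description.

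Of the 605 members of 5000 nt or more, 23 were higher (3.80%) and 14 lower (2.31%) by 2-fold, beside 4.01% and 10.3% of all members. With the median set to 0, 30 were higher (4.96%) and 4 lower (0.661%), beside 6.59% and 6.22%. The median log2 ratio of these long members was -0.14. The longest member, Unigene14865 (32587 nt), had 411 fragments in Sf9, 356 in Sf-15 and 435 in ASO, a log2 ratio of -0.09 (-0.30 to 0.12). The most certain rise among these long unigenes was CL1590.Contig3. The most certain fall was Unigene2670 (5564 nt), with 1773, 216 and 575 fragments and a ratio of -2.92 (-3.13 to -2.71).

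**Figure D4:**
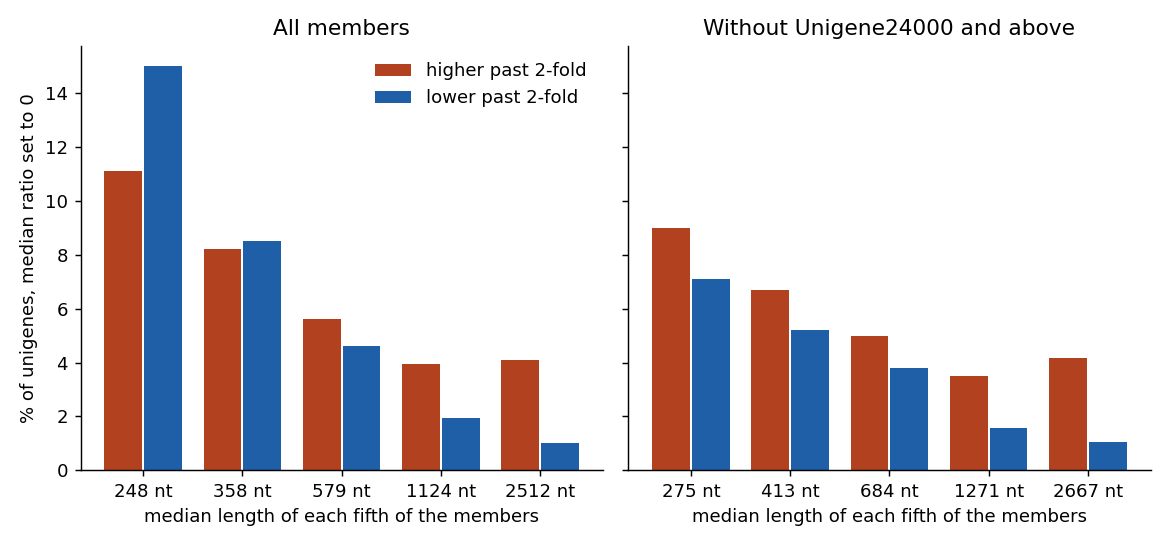
Percent of unigenes past 2-fold in either direction, with the median ratio set to 0, in 5 equal groups by length (labelled by their median length in nt), for all members (left) and without unigenes numbered 24000 and above (right). Lower calls fall from 15.0% to 1.02% on the left and from 7.10% to 1.06% on the right.

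The number in the assembly name of a unigene moved with the ratio, which was noticed only after the values were seen. Of the members outside clusters, 23462 have a number below 24000. In the 24 blocks of 1000 numbers that these form, the median log2 ratio ranged only from -0.35 to -0.22. Above them, the 1820 members numbered 25000 to 26999 had a median of -1.14, and 1024 of them (56.3%) were lower by 2-fold. The 1193 members numbered 27000 to 29999 had a median of -0.18, and the 644 members numbered 30000 and above had a median of 0.77, with 256 (39.8%) higher by 2-fold. In ASO against Sf9, a comparison that shares the Sf9 library, the medians of the same ranges were -1.09, 0.67 and 0.25.

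Unigenes of these ranges were short and rare, with median lengths of 256, 281 and 256 nt and median counts of 16, 11 and 9 fragments in Sf9. In the same order, 1228, 456 and 28 members had 10 or more fragments in Sf9 only, and 10, 240 and 326 in Sf-15 only. Part of these medians and calls thus follows from the filter. Among members with 10 or more fragments in both libraries, the medians of Sf-15 to Sf9 were -0.52, 0.005 and 0.23. Restricted to members with 10 or more fragments in ASO, a filter outside the ratio, these medians were -0.88, -0.05 and 0.42. The members numbered 24000 and above were 12.2% of all members, 39.5% of the shortest length group and 1.18% of the longest. They held 38.9% of the lower and 27.9% of the higher calls, and 194 of the 527 unigenes whose interval lay wholly below 2-fold. With the median set to 0, that was 126 of 272. Without them, the longest group was 0.01 above the shortest in median log2 ratio, against 0.13 over all members, and 1077 members were higher and 2348 lower. The spread still narrowed with length, with lower calls going from 12.2% to 2.60% of the groups. In the shortest of these groups, 1035 members had 10 or more fragments in Sf9 only and 488 in Sf-15 only. The longest had 111 and 123, so part of this fall also follows from the filter. The median still moved with length among the remaining members that had a total of 100 or more fragments. From the shortest to the longest group, the medians of these members were -0.33, -0.33, -0.29, -0.26 and -0.24. With the high-numbered unigenes included, the medians at that limit were the same after rounding. The part of the assembly order in the result was not tested further. Of the named falls, Unigene24655, Unigene25198, Unigene25832, Unigene25169 and Unigene25312 carry numbers of 24000 or above, and Unigene11254 and Unigene1303 do not.

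**Figure D5:**
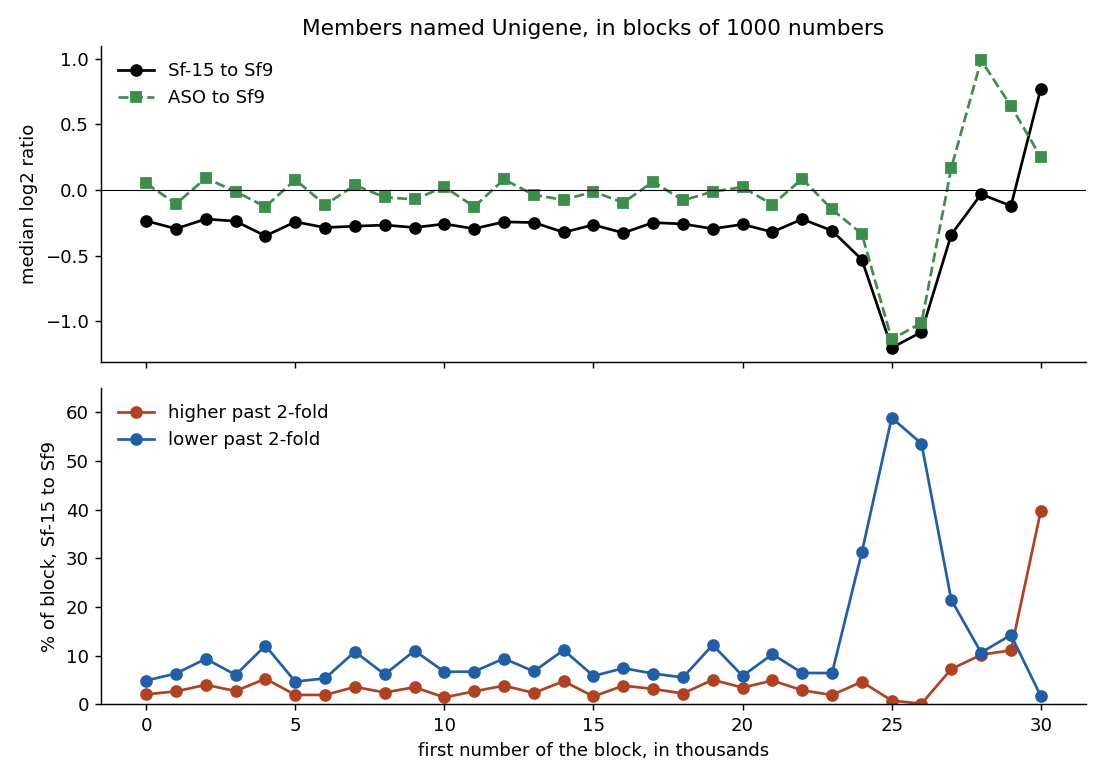
Members outside clusters in blocks of 1000 assembly numbers. Top, the median log2 ratio of Sf-15 to Sf9 (black) and of ASO to Sf9 (green) is level up to 24000 and then departs, to -1.20 and -1.14 in the block from 25000; bottom, the percent of each block past 2-fold in Sf-15 against Sf9, which reaches 58.9% lower in the block from 25000 and 39.8% higher in the block from 30000.

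Contigs with the same CL number were then summed. A total of 9230 members belong to 3755 clusters, and 2839 clusters have 2 or more members, up to 53, with 8314 contigs. The summed fragments of these clusters gave a median log2 ratio of -0.23, with quartiles of -0.46 and 0.04. The sums past 2-fold were 40 higher (1.41% of the clusters) and 84 lower (2.96%), and with the median ratio set to 0 they were 76 (2.68%) and 35 (1.23%). The interval of the sum lay wholly past 2-fold for 13 higher and 24 lower clusters. Counted singly, 325 of the 8314 contigs were higher and 502 lower, or 583 and 268 with the median set to 0. With library totals, the sum of the cluster was also past 2-fold for 103 and 138 of them. In 42 clusters, 179 contigs had the same number of fragments as another contig of the cluster in all 3 libraries, so that a fragment may be counted more than once in a sum.

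The cluster that was most certainly higher was CL453, with 4 fragments in Sf9, 1497 in Sf-15 and 979 in ASO, a log2 ratio of 8.67 (7.31 to 10.55). Its contigs were both higher, CL453.Contig1 (929 nt) going from 3 fragments to 222, with a ratio of 6.33 (4.76 to 8.62). CL1137 had 110, 2139 and 951 fragments and a ratio of 4.40 (4.13 to 4.69), nearly all of them in CL1137.Contig2. CL1590 was next, with 392934, 3807552 and 2670796 fragments, or 2.01%, 21.1% and 13.5% of the libraries, and a ratio of 3.40 (3.39 to 3.40).

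A further cluster was uniform over many contigs. All 9 contigs of CL183 were higher, from 1.51 for CL183.Contig1 (304 nt) to 2.09 for CL183.Contig8 (3406 nt), and the longest, CL183.Contig7 (3987 nt), had 14633 fragments in Sf9, 54259 in Sf-15 and 58651 in ASO. CL3814 was also higher in both of its contigs, with log2 ratios of 2.00 and 2.05. These clusters were chosen after their values were seen.

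On the lower side, the contigs of the leading clusters did not all move alike. CL3288 had 411 fragments in Sf9, 61 in Sf-15 and 54 in ASO, a ratio of -2.63 (-3.04 to -2.24). CL3288.Contig1 (1087 nt) stood at -2.94 (-3.41 to -2.51), while CL3288.Contig2 (789 nt) stood at 0.50 with an interval of -0.80 to 1.85 on 10 and 13 fragments. CL3138 had 361, 55 and 52 fragments and a ratio of -2.59 (-3.03 to -2.18), with CL3138.Contig2 (771 nt) at -4.11 and CL3138.Contig1 (218 nt) at -0.86. CL2033 had 4190, 1125 and 1126 fragments, a ratio of -1.78 (-1.87 to -1.68), and both of its contigs were lower, by -1.82 and -1.32. In all 3 clusters the sums in Sf-15 and ASO were close to each other.

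In the 1910 clusters with exactly 2 members, the ratios of the contigs differed by a median of 0.36 on the log2 scale. Their intervals were apart in 139 clusters (7.28%), and both contigs were on the same side of the median ratio in 1216 (63.7%). The share for pairs of contigs from different clusters is not given here, so the 63.7% has no base to be read against. A contig higher and another lower by 2-fold were found in 5 clusters, and both intervals lay past 2-fold in 2 of them, CL1048 and CL321, and in CL1048 alone with the median set to 0. In CL1048, CL1048.Contig1 (1398 nt) went from 773 fragments in Sf9 to 230 in Sf-15, a ratio of -1.63, while CL1048.Contig4 (341 nt) had 12 and 66, a ratio of 2.58 (1.68 to 3.60). The abundant CL1048.Contig2 outweighed both in the sum. Contigs of clusters had a median log2 ratio of -0.16 and unigenes outside clusters of -0.29, or -0.27 for those numbered below 24000. Within the longest length group the medians were -0.13 for contigs of clusters and -0.28 for the others. Their median totals were 159 and 1253 fragments, so this contrast was not matched for abundance.

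The study lists 21 unigenes for the apoptosis pathway, the programme by which a cell dismantles itself. The list was chosen on these libraries, and its direction upon overexpression is not independent evidence. Of the 21, 19 were members, and CL2476.Contig1 and CL2476.Contig2 were below 10 fragments in both libraries. All 19 ratios were below 0, as were 69.7% over all members, with a median of -0.24 beside -0.26 over all members, and 0 were past 2-fold in either direction. Relative to the median ratio, 12 were above and 7 below. The interval lay below a ratio of 1 for 7 of the 19, beside 30.2% of all members. It lay above the median ratio for 4 and below it for 1, beside 14.1% and 15.8% of all members.

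The lowest of the list was CL1915.Contig2 (1200 nt), with 25 fragments in Sf9, 12 in Sf-15 and 28 in ASO, a log2 ratio of -0.94 with an interval of -2.07 to 0.11. CL2078.Contig2 (2344 nt) was the member whose interval lay below the median ratio, with 134, 77 and 199 fragments and a ratio of -0.68 (-1.10 to -0.26). The most abundant, Unigene18734 (1816 nt), had 2092, 1608 and 2283 fragments and a ratio of -0.26 (-0.35 to -0.16), at the median of all members. Unigene113 (2804 nt) was the highest, with 462, 424 and 573 fragments and a ratio of -0.003, inside an interval of -0.20 to 0.19.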

How the data were processed

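The authors sequenced RNA from 3 states of Sf9 cells (normal, with the Sf-15 overexpression vector and with the antisense oligonucleotide) on an Illumina HiSeq system, 1 library each. Adaptor reads, repeated reads and poor read ends were removed, and what remained was assembled with Trinity, TGICL and Phrap. Aligner and counter are not given in the sources used here.

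The deposited tables hold raw fragments per unigene, which are counts without normalization, and the FPKM that the authors computed from them. Columns with the authors' log2 ratio, p-value, false discovery rate and direction were not used. Deposited FPKM differed from FPKM recomputed with the library totals by at most 5.0e-05. Unigenes without a fragment in either library are not listed and were taken as 0. Repeated reads were removed before counting, and FPKM is relative to the library total, so unigenes that take many fragments lower the others.

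Ratios were computed from counts per library total, with no pseudocount, and given exact (Clopper-Pearson) 95% intervals. A library at 0 was allowed 3 fragments for a bound. This bound leaves out the counting error of the other library and is not the exact 95% interval. A unigene was called at 2-fold. With 1 library per condition no test across unigenes was made. The spread within groups is a robust SD from the quartiles, and the counting SD gives 0.5 fragments to a count of 0. The named unigenes are, in each direction, the 6 with the interval bound farthest from 0, the 4 with the largest change per M (mega) fragments and the 3 clusters by summed interval, besides the 4 most abundant unigenes and the apoptosis list. Other names, the grouping by total fragments and by assembly number were chosen after the values were seen. The members and lists were chosen with earlier results of these data known. Scripts were tested on simulated data with 200 changed unigenes. Python 3.11.15 (numpy 2.4.6, scipy 1.17.1, pandas 2.3.3, matplotlib 3.10.9), R 4.3.3, edgeR 4.0.16 for TMM and DESeq2 1.42.0 for median-of-ratios size factors were used. The alternatives were other scalings, fragment limits, call limits, a pseudocount of 1 FPKM, 1 contig per cluster and other groupings. The direct comparison of Sf-15 with ASO was not used.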

Additional observations from a re-analysis of the deposited data

How the results depend on the processing

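No paired analysis was possible because only a single library was made per condition. The counts of members past 2-fold (1494 higher and 3844 lower) became 2454 and 2317 with the median ratio set to 0, 2401 and 2408 with TMM, 2395 and 2416 with median-of-ratios scaling, and 2713 and 2115 with totals without CL1590. A limit of 1 fragment gave 2419 higher and 4732 lower, 10 in both libraries gave 600 and 1699, and 100 in either gave 161 and 608. Adding 1 FPKM gave 592 and 1834, intervals wholly past 2-fold 220 and 527, a 4-fold limit 275 and 719, and leaving out unigenes numbered 24000 or above 1077 and 2348. With 1 contig per cluster the counts were 1247 and 3477.

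The median log2 ratio (-0.26) was 0 by construction when set to 0, -0.013 with TMM and -0.015 with median-of-ratios scaling, and 0.052 with totals without CL1590. It was -0.25, -0.23 and -0.32 with limits of 1 in either, 10 in both and 100 in either library, -0.20 with 1 FPKM added, -0.28 with 1 contig per cluster and -0.24 without the high-numbered unigenes. The difference between the highest and lowest abundance group (-0.18) was -0.29 with 1 or more fragments, -0.31 with 10 in both libraries, -0.27 with 1 FPKM added, -0.12 with 1 contig per cluster, -0.26 without the high-numbered unigenes, -0.019 grouped by ASO, -0.56 grouped by Sf9 and -0.034 grouped by total fragments. The difference between the longest and shortest group (0.13) was 0.093 with 1 or more fragments, -0.034 with 10 in both libraries, 0.084 with 1 contig per cluster, 0.094 with a total of 100 or more and 0.015 without the high-numbered unigenes. Scaling moves neither difference.

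Clusters past 2-fold (40 higher and 84 lower) became 76 and 35 with the median set to 0, 73 and 35 with TMM and with median-of-ratios scaling, and 89 and 32 without CL1590 in the totals. They were 75 and 123 with 1 or more fragments, 21 and 56 with 10 in both libraries, 7 and 24 with 100 in either, 21 and 50 with 1 FPKM added, 13 and 24 by interval and 10 and 7 at 4-fold. The rise of the 10 most abundant unigenes in share, 17.9 percentage points, was 1.06 with totals without CL1590. For the named unigenes, 49 of the alternative values stayed within the counting interval and 41 moved outside it. In 3 of these the sign turned, all for CL2180.Contig1 (-0.25), which was 0.014 with the median set to 0, 0.00092 with TMM and 0.065 with totals without CL1590. The alternatives on grouping by total fragments and by assembly number were chosen after seeing the data. The interval of 68.7% of the higher and 72.9% of the lower calls excluded a ratio of 1, so for the rest no difference could be told at this depth, and the spread between cultures is unknown.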

Other observations

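In CL321, contigs of similar length lay on both sides of 0. CL321.Contig2 (1875 nt) had counts of 58 in Sf9, 13 in Sf-15 and 33 in ASO, with a log2 ratio of Sf-15 to Sf9 of -2.04 (exact 95% interval -3.03 to -1.15). CL321.Contig11 (1921 nt) had 35, 133 and 136, with a ratio of 2.05 (1.50 to 2.63), and CL321.Contig8 (1774 nt) had 30, 117 and 92, with a ratio of 2.08 (1.50 to 2.71). With the median ratio set to 0, the interval of CL321.Contig2 ended at -0.89, inside 2-fold. These contigs were chosen after their values were seen, and the interval covers counting error only.

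Of the 27 members at 0 in Sf9, 17 have an assembly number of 30000 or above, beside 644 of all 37239 members. Of the 37 members at 0 in Sf-15, 31 have a number from 24000 to 26999. Over all members, 890 are numbered 24000 to 24999 and 1820 are numbered 25000 to 26999. A member at 0 in a library passed the filter only through the other. Among the 644, 326 reached 10 fragments in Sf-15 only, so part of this pattern follows from the filter. Unigene30205 (1243 nt) had 173 fragments in Sf-15, 1 in ASO and 0 in Sf9, at least 62.7-fold higher in Sf-15 than in Sf9.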
